A study of Homo sapiens with 4 samples.

Results

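ATF4, DDIT3 (which encodes CHOP), ATF3, CEBPB, CEBPG, TRIB3, DDIT4, SESN2, PPP1R15A and CHAC1 are transcription factors and feedback regulators of the integrated stress response. They were taken by gene symbol from a table of 58735 genes measured by RNA-seq in 2 human colorectal cancer cell lines, HCT116 and LOVO, and each symbol matched 1 row. All 10 also had a mean of at least 1 FPKM (fragments scaled to a gene length of 1000 bases and to 1000000 fragments in the library) over the 4 libraries, as did 14429 genes in all, which are the genes compared below. The set was chosen by measured values of these same libraries, the changes in FPKM between adherent cells and spheroids, so those changes are given here as a description and were not tested. Every one of the 10 had a lower FPKM in spheroids than in adherent cells in both lines. At one end were DDIT3, 20.8-fold lower in HCT116, and CHAC1, 23.8-fold lower in LOVO, and at the other was CEBPB, 1.08-fold lower in LOVO, a direction that turned when the values were expressed as TPM, a unit that sums to the same total in each library.

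Each line was sequenced once as adherent cells and once as spheroids, which makes 4 libraries, 1 per condition, all labelled wild type. The adherent cells grew attached in a medium with serum and without drug. The spheroids grew from single cells in ultralow attachment dishes in serum-free DMEM/F12 with B27, N2, bFGF and EGF, and a drug was present during their formation. The labels give it as 1 mg/ml with no name, while the published text outside the methods names oxaliplatin with a dose in μg/ml. Growth form, medium, serum and drug therefore changed together and cannot be told apart, and with 1 library per condition no difference has a replicate check. In bulk RNA, fewer cells of a type and less RNA per cell cannot be told apart either.

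The libraries held 15483569 to 20429147 reads on genes, and 0.0867% to 0.232% of them fell on the 10 genes. The cell type labels were checked with marker genes. Both HCT116 libraries carried EPCAM, an epithelial adhesion molecule, with 4397 and 3356 reads, whereas the libraries labelled LOVO had 42 in adherent cells and 76 in spheroids. CDH1, which encodes E-cadherin, had 3920 and 3227 reads in HCT116 and 13 and 1 in LOVO. CDX2, the intestinal transcription factor, had 323 and 216 reads in HCT116 and 0 in both LOVO libraries, where a count of 0 allows an FPKM of up to 0.0406 and 0.0362, and VIL1 was at 0 there as well but had only 6 and 11 reads in HCT116. The keratin genes KRT8 and KRT18 were present in every library, with 6400 to 80076 reads, and KRT19 had 38478 and 21315 reads in HCT116 and 625 and 228 in LOVO. The summed FPKM of the 7 epithelial markers was 1753 and 1280 in HCT116 and 327 and 187 in LOVO. Of the 4 fibroblast markers, DCN had 0 reads in both HCT116 libraries and 2386 and 2577 in the LOVO libraries, and PDGFRB had 12 and 21 against 201 and 168. COL1A2 had at most 1 read in each library, and COL1A1 was highest in HCT116 spheroids, with 1103 and 2557 reads in HCT116 and 1741 and 1206 in LOVO. The summed FPKM of these 4 was 5.59 and 15.7 in HCT116 and 21.8 and 17.2 in LOVO. Of the 3 endothelial markers, whose summed FPKM was 0.254 and 0.753 in HCT116 and 1.13 and 7.84 in LOVO, PECAM1 had 992 reads in LOVO spheroids against 5 to 51 in the other libraries, and the 4 leukocyte markers had at most 8 reads each. The libraries labelled LOVO thus went against the label of an epithelial colon line in EPCAM, CDH1 and CDX2, and in DCN among the fibroblast markers, and their part in the results was not tested. HCT116 and LOVO are given separately throughout, so that the HCT116 values stand on their own.

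As background, cells that lack amino acids, carry unfolded protein in the endoplasmic reticulum, lack haem or sense viral RNA activate kinases that phosphorylate the initiation factor eIF2. General translation then slows, while the mRNA of ATF4 is translated more, and the ATF4 protein switches on genes of amino acid supply together with CHOP, ATF3 and a set of regulators that end or limit the response. Because ATF4 is controlled largely at translation, the level of its mRNA does not give the level of its protein. Many of these genes also answer to other inputs, such as p53, hypoxia, serum and glucocorticoids.

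ATF4 and CHOP bind as pairs with C/EBP proteins to a composite element, written TGATGNAA, where N is any base, and ATF3 binds the cyclic AMP response element TGACGTCA. These letters were chosen after the expression values had been seen, and were searched on both strands in the RefSeq promoter windows of GRCh38.p14, which run from 250 bases before to 50 bases after a start site. All 10 genes matched, with 17 windows between them, and the 2 elements do not overlap each other in these windows. The composite element was found in 3 of the 17 windows, those of ATF3, CHAC1 and CEBPG, and in 3.62% of all 35116 windows. The cyclic AMP response element was found in 1, that of PPP1R15A, and in 1.85% of all windows. The stretches around the 4 matches are shown because they belong to genes of both patterns described below, ATF3 and PPP1R15A being reduced more in HCT116 and CHAC1 and CEBPG more in LOVO. The matched letters are in capitals, and each stretch is written 5′ to 3′ on the plus strand of GRCh38.p14.
ATF3, 191 bases before the start, chr1:212565180-212565259: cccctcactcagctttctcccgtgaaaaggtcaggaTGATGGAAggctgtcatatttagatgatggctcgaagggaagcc
CEBPG, 42 bases before the start, chr19:33374035-33374114: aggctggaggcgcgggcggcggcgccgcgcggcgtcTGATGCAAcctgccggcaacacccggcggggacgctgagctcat
CHAC1, 209 bases before the start and on the opposite strand, chr15:40953251-40953280: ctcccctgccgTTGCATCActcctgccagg
PPP1R15A, 58 bases before the start, chr19:48872352-48872381: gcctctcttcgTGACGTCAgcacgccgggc
The CHAC1 stretch lies within an annotated exon of CHAC1 that begins further upstream. A match describes these letters in this window and does not show that a factor binds there.

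ATF4, the factor at the head of the response, lies on the plus strand of chromosome 22 from 39519695 to 39522685. It was the most abundant of the 10 genes in each library. In HCT116 it stood at 291 FPKM in adherent cells and 149 in spheroids, and in LOVO at 287 and 129. The adherent libraries of both lines were thus nearly equal and the spheroids were at 51.4% and 45.1% of them. On the scale of log2(FPKM + 1), spheroids minus adherent cells, ATF4 was at -0.96 in HCT116 and at -1.14 in LOVO. The log2 ratio without a pseudocount had 95% exact (Clopper-Pearson) counting intervals from -1.004 to -0.92 and from -1.19 to -1.11, based on 6302 to 14888 reads per library. These intervals cover counting error only. Folds and ratio intervals, here and below, are without a pseudocount. A change on the log2(FPKM + 1) scale can therefore lie outside its ratio interval. The 4 annotated ATF4 pseudogenes had at most 26 reads each in any library.

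DDIT3 encodes CHOP, a factor that ATF4 induces and that is linked to redox load and cell death under lasting stress. The gene lies on the minus strand of chromosome 12 from 57516588 to 57521737. In HCT116, DDIT3 stood at 189 FPKM in adherent cells (5042 reads) and 9.11 in spheroids (200 reads). The corresponding LOVO libraries had 36.1 and 11.9 FPKM (847 and 312 reads). One library, adherent HCT116, was high, and the other 3 lay between 9.11 and 36.1. The change in HCT116, -4.23, was the lowest of all 14429 genes compared, with a counting interval of the log2 ratio from -4.59 to -4.17. In LOVO the change was -1.53, and it ranked 337 from the lowest. The FPKM of DDIT3 was 3.05-fold lower there, with an interval of the log2 ratio from -1.80 to -1.42. MARS, the cytosolic methionyl-tRNA synthetase gene on the opposite strand, shares 355 of the exonic bases of DDIT3, which is 27.2% of them, and whether the counting used strand is not given in the sources used here. MARS was itself lower in spheroids, with 33.8 and 23.5 FPKM in HCT116 and 61.0 and 20.5 in LOVO. A further 4.44% of the exonic bases of DDIT3 are shared with MBD6, so the level of DDIT3 may hold reads of both neighbours. MARS had 2776 reads in HCT116 spheroids and 7689 in adherent LOVO cells, against 200 and 847 for DDIT3. How many fell on shared bases was not determined, so the low levels and the folds of DDIT3 carry this limit, which the counting intervals do not cover.

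ATF3 encodes a repressor of the same family that many stresses induce early. It lies on the plus strand of chromosome 1 from 212565334 to 212620777. Adherent HCT116 cells had 76.8 FPKM of ATF3 and HCT116 spheroids 12.3, against 17.8 and 7.37 in the corresponding LOVO libraries. As with DDIT3, adherent HCT116 was the high library. The HCT116 change of ATF3 was -2.55, with a ratio interval from -2.75 to -2.54, and the LOVO change was -1.17, with one from -1.42 to -1.13. LOVO minus HCT116, ATF3 differed by -2.05 in adherent cells and by -0.66 in spheroids.

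CEBPB and CEBPG encode partners with which ATF4 and CHOP dimerise. CEBPB, on the plus strand of chromosome 20 from 50190734 to 50192689, had 69.2 FPKM in adherent cells and 35.9 in spheroids of HCT116. In LOVO it had 116 FPKM in adherent cells and 108 in spheroids. Its levels in both LOVO libraries were above those in both HCT116 libraries. The CEBPB change was -0.93 in HCT116, with a ratio interval from -1.05 to -0.85. In LOVO the change was -0.11, the smallest of the 10 genes in either line, and it turned to 0.09 as TPM, so its direction in LOVO depends on the scaling. CEBPB-AS1, which covers 11.8% of the exonic bases of CEBPB on the other strand, had 14 to 32 reads.

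CEBPG, on the plus strand of chromosome 19 from 33373330 to 33382686, had 28.9 and 31.0 FPKM in adherent HCT116 and LOVO cells. HCT116 spheroids had 17.0 and LOVO spheroids 7.61. The adherent libraries were close together and the LOVO spheroids stood lowest. The change was -0.74 in HCT116, the smallest of the 10 genes there, and -1.89 in LOVO, with ratio intervals from -0.87 to -0.67 and from -2.15 to -1.90. Of the pair, CEBPB was thus the nearer to its adherent level in LOVO and CEBPG the nearer in HCT116 on the log2 scale.

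PPP1R15A encodes GADD34, which guides a phosphatase to eIF2 and so lets translation resume. It lies on the plus strand of chromosome 19 from 48872392 to 48876057. PPP1R15A was at 61.9 FPKM in adherent cells and 13.9 in spheroids of HCT116, and at 21.1 and 7.78 in those of LOVO. Adherent HCT116 was again the high library. Its change was -2.08 in HCT116 and -1.33 in LOVO, with ratio intervals from -2.27 to -2.04 and from -1.60 to -1.29. DDIT3, ATF3 and PPP1R15A were the 3 of the 10 genes that were lower in adherent LOVO than in adherent HCT116 cells by more than 1 on the log2(FPKM + 1) scale, as were 16.4% of the genes compared.

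TRIB3 encodes a pseudokinase that binds ATF4 and CHOP and dampens their activity. It lies on the plus strand of chromosome 20 from 362835 to 397559. HCT116 had 49.7 FPKM of TRIB3 in adherent cells and 8.01 in spheroids, and LOVO had 130 and 39.5. LOVO was higher than HCT116 in both growth forms, by 1.37 in adherent cells and 2.17 in spheroids on the log2(FPKM + 1) scale. The spheroids differed from adherent cells by -2.49 in HCT116, with a ratio interval from -2.78 to -2.49, and by -1.69 in LOVO, with one from -1.78 to -1.65. TRIB3 in LOVO spheroids, at 39.5 FPKM, was thus nearer to the 49.7 of adherent HCT116 cells than to the 8.01 of HCT116 spheroids.

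SESN2 and DDIT4 encode inhibitors of the growth kinase complex mTORC1, SESN2 as a leucine sensor and DDIT4, also called REDD1, through the TSC complex. SESN2, on the plus strand of chromosome 1 from 28259527 to 28282491, had 38.8 FPKM in adherent cells and 12.3 in spheroids of HCT116, and 52.3 and 7.74 in those of LOVO. Both adherent libraries were above both spheroid libraries. SESN2 was at -1.59 in HCT116 and at -2.61 in LOVO, with ratio intervals from -1.78 to -1.54 and from -2.89 to -2.62. DDIT4, on the plus strand of chromosome 10 from 72273920 to 72276036, had 93.1, 45.7, 145 and 104 FPKM in the same order of libraries. In contrast to SESN2, its level in LOVO spheroids was above that in adherent HCT116 cells. DDIT4 was at -1.01 in HCT116 and at -0.48 in LOVO, with ratio intervals from -1.11 to -0.94 and from -0.54 to -0.42. DDIT4-AS1 covers 41.2% of the exonic bases of DDIT4 on the opposite strand and had 0 reads in each library.

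CHAC1 encodes a gamma-glutamylcyclotransferase that breaks down glutathione and is a downstream target of ATF4, CHOP and ATF3. It lies on the plus strand of chromosome 15 from 40952962 to 40956519. HCT116 had 41.2 FPKM of CHAC1 in adherent cells (1727 reads) and 5.06 in spheroids (175 reads), and LOVO had 60.9 (2247 reads) and 2.56 (106 reads). It was the least abundant of the 10 genes in the spheroids of both lines. The change in LOVO, -4.12, was the lowest of all 14429 genes compared. Without a pseudocount the log2 ratio there was -4.57, with an interval from -4.87 to -4.29. The change in HCT116 was -2.80, and it ranked 12 from the lowest. The FPKM of CHAC1 was 8.13-fold lower in HCT116, a log2 ratio of -3.02 with an interval from -3.26 to -2.80. CHAC1 was the only one of the 10 genes below -2 in both lines.

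Summed over the 10 genes, HCT116 had 939.5 FPKM in adherent cells and 308.4 in spheroids, and LOVO had 896.7 and 424.7. All 10 were lower in HCT116 spheroids (53.4% of the genes compared), in LOVO spheroids (53.5%, and 9 of the 10 as TPM, without CEBPB) and in both (35.1%). Below -1 were 7 of the 10 genes in HCT116 (3.33% of the genes compared), 8 in LOVO (7.85%) and 6 in both lines (0.88%). Below -2 were 5 in HCT116 (0.506%), namely DDIT3, CHAC1, ATF3, TRIB3 and PPP1R15A, 2 in LOVO (0.943%), namely CHAC1 and SESN2, and 1 in both (0.0416%). A change of this size was part of the study's own criterion, whose p-value could not be applied here. Over the 10 genes the median change was -1.83 in HCT116 and -1.43 in LOVO, beside -0.03 and -0.06 over all genes compared. Since this contrast chose the genes, nothing is read from these shares.

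The size of the change was not the same in both lines. For 6 of the genes (DDIT3, ATF3, CEBPB, TRIB3, DDIT4 and PPP1R15A) the level was reduced more in HCT116, and for 4 (ATF4, CEBPG, SESN2 and CHAC1) more in LOVO. For ATF4 this depends on the scaling: as TPM both lines were at -0.94. With TMM-style scaling ATF4 was at -0.99 in HCT116 and -1.10 in LOVO, and after centring at -0.92 and -1.09. The widest gap was that of DDIT3, whose change in LOVO minus that in HCT116 was 2.70, followed by ATF3 at 1.38 and CHAC1 at -1.32. ATF4 itself had the smallest gap, at -0.19. With 1 library per condition the difference between the lines could not be tested.

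The order of levels within a library also differed. In adherent HCT116 cells DDIT3 came next after ATF4, followed by DDIT4, ATF3, CEBPB, PPP1R15A, TRIB3, CHAC1, SESN2 and CEBPG, and of neighbours in this order CHAC1 and SESN2 were the pair whose log2 ratio had a 95% counting interval that included 0. The order in HCT116 spheroids was ATF4, DDIT4, CEBPB, CEBPG, PPP1R15A, ATF3, SESN2, DDIT3, TRIB3 and CHAC1, where the interval of the ratio included 0 for ATF3 and SESN2 and for DDIT3 and TRIB3, so that no difference of these pairs was detectable at this depth. CEBPG, last of the 10 in the adherent library, thus ranked 4 of 10 there, with 17.0 FPKM. For adherent LOVO cells the order was ATF4, DDIT4, TRIB3, CEBPB, CHAC1, SESN2, DDIT3, CEBPG, PPP1R15A and ATF3, and every interval between neighbours excluded 0. LOVO spheroids had ATF4, CEBPB and DDIT4 on top, with an interval for the latter pair from -0.12 to 0.01, then TRIB3 and DDIT3, then PPP1R15A, SESN2, CEBPG and ATF3, between 7.37 and 7.78 FPKM, for which each interval between neighbours included 0, and last CHAC1.

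Set against the ATF4 mRNA of the same library, the FPKM of DDIT3 was 65.1% of that of ATF4 in adherent cells of HCT116 and 6.10% in their spheroids, and in LOVO 12.6% and 9.17%. CHAC1 had 14.2% and 3.39% in HCT116, and 21.2% and 1.98% in LOVO. Both genes were therefore lowered by more than ATF4 itself. CEBPB was at 23.8% and 24.1% of ATF4 in HCT116 and had 40.6% and 83.1% in LOVO. DDIT4 likewise had 32.0% and 30.6% in HCT116, and 50.4% and 80.04% in LOVO. CEBPB and DDIT4 were thus lowered in about the same proportion as ATF4 in HCT116 and by less than ATF4 in LOVO.

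Between the lines, 4 of the 10 genes differed by more than 1 in size in adherent cells, as did 33.8% of the genes compared, and 4 in spheroids, as did 32.7%. In adherent cells these were DDIT3 (-2.36, LOVO minus HCT116), ATF3 (-2.05), PPP1R15A (-1.51) and TRIB3 (1.37). In spheroids they were TRIB3 (2.17), CEBPB (1.56), DDIT4 (1.16) and CEBPG (-1.06, but -0.90 as TPM, which leaves 3). DDIT3, which separated the adherent cells of the lines most, was at 9.11 and 11.9 FPKM in their spheroids, a difference of 0.35. ATF4 differed by -0.02 in adherent cells, with a counting interval of the ratio from -0.05 to 0.02 that includes 0, and by -0.20 in spheroids, and both values turned to 0.03 as TPM. In all, 3 genes (DDIT3, ATF3 and PPP1R15A) were closer between the lines in spheroids than in adherent cells and 7 were further apart, a split that became 5 and 5 as TPM, with ATF4 and SESN2 closer as well. These differences use the same libraries as the changes within each line and are not separate evidence.

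Of 26 other target genes of ATF4, 24 were among the genes compared. In HCT116, 22 of them were lower in spheroids (53.4% of the genes compared) and 14 were below -1 (3.33%). NUPR1, counted there as lower, had 4 and 1 reads in HCT116, and VLDLR, counted as higher, had 3 and 5. Neither direction was beyond counting error. In LOVO all 24 were lower (53.5%) and 23 were below -1 (7.85%), the same 14 being below -1 in both (0.88%). Their median change was -1.21 and -2.04, so that in LOVO it was further below 0 than that of the 10 genes and in HCT116 nearer to it. The furthest in either line, all by their LOVO change, were SLC7A5, a transporter of large neutral amino acids (-2.12 in HCT116 and -4.02 in LOVO), PCK2, the mitochondrial enzyme of phosphoenolpyruvate synthesis (-2.04 and -3.64), STC2, a secreted glycoprotein (-1.501 and -3.47), and PSAT1, of serine synthesis (-2.01 and -3.32). In HCT116 the furthest was ASNS, the asparagine synthetase, at -2.42 (-1.87 in LOVO), followed by SLC7A11, the cystine transporter, at -2.13 (-2.06). ASNS had only 24 reads in LOVO spheroids, and which line changed more depends on the pseudocount. Under the alternatives its change reached -3.06 in HCT116 and -3.71 in LOVO. Of the 2 that were higher in HCT116 spheroids, CTH, which makes cysteine by transsulfuration, was the further from 0, at 0.65 in HCT116 and -3.05 in LOVO. This list was also written with results of these libraries known and overlaps genes on which such results had been given.

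The genes upstream of ATF4 differed less. The 5 genes of the eIF2 kinases and of GCN1, the activator of the kinase GCN2, had median changes of -0.08 (HCT116) and 0.04 (LOVO). None was past 1 in either direction. EIF2AK3, which encodes the kinase PERK of the endoplasmic reticulum, had -0.08 and 0.45, and EIF2AK2, which encodes PKR, had -0.18 and -0.38. The 8 genes of eIF2 and its exchange factor eIF2B had medians of -0.42 and -0.51. In each line 1 gene was below -1 (3.33% of the genes compared in HCT116 and 7.85% in LOVO), EIF2S2, the beta subunit of eIF2, at -1.001 and -1.70. Of the 4 genes of the eIF2 phosphatase other than PPP1R15A, all were lower in both lines (PPP1CB in HCT116, at -0.02, turned positive under 2 of 5 pseudocount and scaling alternatives), with medians of -0.51 and -0.84. PPP1R15B, the constitutive targeting subunit and a paralog of PPP1R15A, was at -0.61 and -1.78.

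Other families of the same kinds of protein were mixed. Of 14 other ATF and CREB factors, 11 were compared, with medians of -0.26 and -0.49, and below -1 were ATF5 in both lines (-1.34 and -1.12) and JDP2 in LOVO (-2.26, against -0.45 in HCT116). CEBPD, a C/EBP factor, was at -0.50 in HCT116 and 1.20 in LOVO, and CEBPA was at -0.34 and -0.28. Among 7 paralogs of the feedback regulators, 3 were above 1 in HCT116 (2.19% of the genes compared), namely DDIT4L at 1.40, SESN3 at 1.19 and TRIB2 at 1.10, and 3 were below -1 in LOVO (7.85%). TRIB2 was at 1.20 in LOVO as well, whereas SESN3 was at -1.08 and CHAC2 at -1.70 (-0.72 in HCT116). In HCT116, TRIB3, SESN2 and DDIT4 were lower in spheroids and the paralogs TRIB2, SESN3 and DDIT4L were higher. The other 4 of the 7 paralogs were lower there, namely TRIB1 (-0.02), SESN1 (-0.07), PPP1R15B (-0.61) and CHAC2 (-0.72). TRIB1 turned positive under 2 of the pseudocount and scaling alternatives.

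The other arms of the unfolded protein response, run by ATF6 and XBP1, differed between the lines in direction. All 16 genes of this list were lower in HCT116 spheroids (53.4% of the genes compared), 7 of them below -1 (3.33%), with a median of -0.66. In LOVO 3 were lower (SEL1L, at -0.01, turned positive under 3 of 5 pseudocount and scaling alternatives) and 13 higher (45.5% of the genes compared), with a median of 0.40, 0 below -1 and 1 above 1 (8.57% of the genes compared). The count above 1 depends on the setting. SDF2L1 in LOVO was at 1.01 to 1.21 under the alternatives, and MANF and SYVN1 reached 1.17 and 1.03. HSPA5, the main chaperone of the endoplasmic reticulum, had 1073 and 219 FPKM in adherent HCT116 cells and spheroids and 243 and 281 in LOVO, changes of -2.29 and 0.21. HERPUD1, of endoplasmic reticulum-associated degradation, had -2.73 and -0.88, SDF2L1 had -1.67 and 0.99, and PDIA4, a disulfide isomerase, had -1.58 and 1.01. In LOVO, then, DDIT3, ATF3 and CHAC1 were lower in spheroids while most genes of the ATF6 and XBP1 list were not. Of 6 CHOP-linked redox and death genes compared, 5 were lower in HCT116 (53.4% of the genes compared) and 2 in LOVO (53.5%), with medians of -0.35 and 0.51. ERO1A, an oxidase of the endoplasmic reticulum, had -0.09 and 0.97, PMAIP1, which encodes NOXA, had -0.85 and -1.04, and BBC3, which encodes PUMA, had -0.45 and 0.79.

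Lists for the other inputs of these genes were read in the same way. The 10 immediate early genes, which serum induces and which share inputs with ATF3 and PPP1R15A, were all lower in HCT116 spheroids (53.4% of the genes compared). There 7 were below -1 (3.33%), with a median of -1.44. In LOVO 2 were lower (53.5%), with 0 below -1, 3 above 1 (8.57%) and a median of 0.65. Those 2, DUSP1 and EGR2, each turned positive under at least 1 pseudocount or scaling alternative. EGR1 had -2.83 in HCT116 and 0.61 in LOVO, FOS had -2.82 and 0.23, ZFP36 had -2.15 and 1.81, and IER3 had -0.32 and 4.85. These values moved with those of ATF3 and PPP1R15A in HCT116 but not in LOVO, and their part in the result was not tested. The 15 p53 targets compared had a median of -0.21 in LOVO, and their median in HCT116, which lay between -0.03 and 0.03 under the alternatives, turned sign with the scaling. GADD45A was the one below -1 in both lines (-1.09 and -1.81), CDKN1A had 202 and 201 FPKM in HCT116 and 24.5 and 63.9 in LOVO, and TP53INP1 was at 1.29 and 0.86. The 9 hypoxia targets, which share an input with DDIT4, had medians of 0.06 and 0.29 and 0 genes below -1. CA9, a carbonic anhydrase, was at 2.62 in LOVO and EGLN3, an oxygen sensor, at 2.41, while ANKRD37 was at 2.06 in HCT116 and ADM at -0.72 in HCT116 and 1.17 in LOVO. Of the 4 glucocorticoid targets compared, 4 were lower in HCT116 (53.4% of the genes compared) and 1 in LOVO (53.5%), PER1 having -0.32 and 1.75 and FKBP5 -0.85 and 0.17. The 13 mTORC1 regulators compared, on whose pathway SESN2 and DDIT4 act, had medians of -0.04 and -0.09, the latter turning to 0.10 as TPM, and none was past 1, with NPRL2 nearest at -0.14 and 0.98. Under each pseudocount and scaling alternative, NPRL2 was past 1 in LOVO, at 1.02 to 1.28. Among 8 genes of glutathione turnover around CHAC1, 7 were lower in HCT116 (53.4% of the genes compared) and 6 in LOVO (53.5%), with medians of -0.72 and -0.96. In LOVO 4 were below -1 (7.85%) and 1 was above 1 (8.57%), namely GGT1 at 1.20, against 0.08 in HCT116.

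Profiles over the 4 libraries were compared by the Euclidean distance of log2(FPKM + 1) values, each gene centred on its own mean, as a description over 4 points. Nearest to ATF4 were MRPS10 (distance 0.0718), GAPDH (0.0950), NPM1P27, SLC39A14 and COQ3, and GAPDH had 872 and 417 FPKM in HCT116 and 870 and 388 in LOVO. DDIT3 had no close neighbour: CDC20 came first at a distance of 0.878, then MIR616, ATF3, RNU6-101P and ASNS at 1.23 to 1.32. MIR616 lies within the span of DDIT3 and had 93, 8, 10 and 5 reads. The nearest to CHAC1 were STC2 (1.11), PCK2, PHGDH, SLC7A5 and MIR6775 (1.26), of which STC2, PCK2, PHGDH and SLC7A5 belong to the list of ATF4 targets. For the other members the nearest genes were MT1E for ATF3 (0.334), TUBB for CEBPB (0.0604), NFIL3 for CEBPG (0.113), SLC7A11 for TRIB3 (0.447), MRPL11 for DDIT4 (0.0856), MIR6775 for SESN2 (0.374) and RNU6-1263P for PPP1R15A (0.226). RNU6-1263P had only 5.09 and 0.56 FPKM in HCT116 and 1.05 and 0 in LOVO. RNU6-101P had 4.72 and 0 in HCT116 and 1.07 and 0 in LOVO, so both profiles lie near the floor.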

How the data were processed

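RNA was taken with an RNeasy plus kit and sequenced from SMARTER mRNA-Seq libraries, 1 for each of 4 conditions. The authors deposited 1 table of FPKM values for 58735 genes, and the methods name edgeR for their own gene statistics. The aligner, the counting and its use of strand are not given in the sources used here. The labels list the mouse builds GRCm38 and mm10, whereas all 58735 identifiers are human and were found in GENCODE 29 (GRCh38), 58724 with the same start and end. Coordinates are those of the table.

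FPKM times gene length gave whole multiples of 1 step per library (100% of values above 0, tolerance 0.05 reads), which gave back the reads, totalling 20429147, 15483569, 19778829 and 19108069. The comparison took the 14429 genes whose mean FPKM was 1 or more, on log2(FPKM + 1), which understates changes of low genes. With 1 library per condition no test was run. Intervals (95%, exact Poisson for levels and Clopper-Pearson for ratios) cover counting error only, neighbours in the order of levels were compared by the interval of their ratio, a choice made after seeing the data, and a count of 0 was given an upper limit of 3 reads. The calculations were tested on simulated data. Python 3.11.15, numpy 2.4.6, pandas 2.3.3, scipy 1.17.1 and matplotlib 3.10.9 were used.

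The 10 genes, the 15 pathway lists and the 4 marker lists were chosen with earlier results of these data known. Named were the 10 genes, up to 4 genes of each list with the largest change in either line before others of that list, the 5 nearest profiles of ATF4, DDIT3 and CHAC1 and the nearest of each other member, and genes that overlap a member or are its pseudogenes. Alternatives were pseudocounts of 0.1 and 0.01, TPM, TMM-style scaling, centring on the median, other filters and a threshold of 1.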

Additional observations from a re-analysis of the deposited data

Results flagged for a closer look

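The results below had changes of opposite sign in the spheroids of the lines, though not all of these changes were beyond counting error. Each value is the change in LOVO minus the change in HCT116 on the log2(FPKM + 1) scale. With 1 library per condition, none of these differences was tested.

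Among the lists, the median of the immediate early genes differed by 2.09, that of the ATF6 and XBP1 arms by 1.06, that of the CHOP-linked redox and death genes by 0.86, that of the glucocorticoid targets by 0.57 and that of the eIF2 kinases by 0.12. None of the 5 pseudocount and scaling alternatives turned the sign of these medians in either line. The eIF2 kinase medians are the values of EIF2AK3 in HCT116 (-0.08) and of EIF2AK4 in LOVO (0.04). Their ratio intervals, from -0.25 to 0.06 and from -0.06 to 0.15, both include 0, so opposite directions are not shown for that list.

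Among chaperone genes of the endoplasmic reticulum, the difference was 2.501 for HSPA5, 2.59 for PDIA4 and 2.65 for SDF2L1. For the immediate early genes it was 3.05 for FOS, 3.44 for EGR1, 3.97 for ZFP36 and 5.17 for IER3. SESN3, a paralog of SESN2, differed by -2.27, CTH by -3.70 and CEBPD by 1.70. The other genes were CDKN1A at 1.35 and EIF2AK3 at 0.53, whose HCT116 libraries each differed by less than counting error, ERO1A at 1.05, BBC3 at 1.25, PER1 at 2.07, FKBP5 at 1.03, ADM at 1.89 and NPRL2 at 1.12. Of these genes CDKN1A in HCT116 was the one whose direction turned under a scaling alternative.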

How the results depend on the processing

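All 10 genes kept a lower level in HCT116 spheroids under each pseudocount and scaling alternative, and 9 did in LOVO, CEBPB turning to 0.09 as TPM. TPM raised the median of all genes compared by 0.15 in LOVO, so LOVO values as TPM are read against that shift, and by 0.22 in LOVO against HCT116 spheroids. The median change of the 10 genes, -1.83 in HCT116 and -1.43 in LOVO, came to -1.90 and -1.51 with a pseudocount of 0.1, -1.91 and -1.52 with 0.01, -1.87 and -1.30 as TPM, -1.86 and -1.39 with TMM-style scaling and -1.80 and -1.38 after centring. The count below -2 in LOVO, 2, became 3 with either pseudocount, CEBPG joining, and 8 at a threshold of 1. Below -1, ATF4 dropped out in LOVO as TPM, which left 7 of 8, and DDIT4 in HCT116 after centring, which left 6 of 7. The share of genes below -2 in HCT116, 0.506%, was 0.128% without a filter on low values and 0.773% at a mean FPKM of at least 5, and in LOVO 0.943% became 0.238% without a filter. The lowest counts were 106 reads on CHAC1 and 312 on DDIT3 in LOVO spheroids and 175 and 200 in HCT116 spheroids. No replicate could be left out, since each condition had 1 library. No result here comes from a test, and no paired analysis was run. A fit with the line as a block, which would leave 1 residual degree of freedom, was not run.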
